A study of Mus musculus with 12 samples.

Results

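The genes described here encode the subunits, assembly chaperones and activators of the proteasome. They were chosen by name: every gene in the deposited table whose mouse symbol begins with Psma to Psmg followed by a number, without Psmb8 and Psmb9. The rule found 49 of 19212 genes, and 47 of the 49 encode proteasome proteins. The other two, Psmc3ip and Psme3ip1, match the pattern but name proteins that bind a proteasome protein or were named after one, and they are given apart. By role the 47 comprised 7 alpha ring and 7 beta ring subunits of the core, 3 alternative core subunits, 6 ATPases and 11 other subunits of the cap, 3 cap chaperones, 4 core chaperones, and 6 activators and inhibitors. A filter on low counts passed 47 of the 49, all but Psma8 and Psmb11, and the counts of members below are out of these 47, Psmc3ip and Psme3ip1 included.

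Poly(A) RNA of mouse lung tumours was sequenced in 12 libraries, 3 in each of 4 groups. All tumours were started from LLC cells, a mouse lung carcinoma line. In the first experiment the cells carried a negative control lentivirus (NC) or a lentivirus that knocks down OTUB1, a deubiquitinating enzyme (OTUB1_KD), before they were placed in the lung. In the second, tumour-bearing mice received physiological saline (Blank) or SFD@M, a preparation whose composition the labels do not give. The labels state no mouse strain, age, sex, dose, time, or whether animals were pooled. They do not say whether the 2 control groups differ in anything beyond the lentivirus and the saline. Nothing states that the 3 libraries of a group came from separate mice, so p-values measure the spread between these libraries only.

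The proteasome is the particle that degrades proteins marked with ubiquitin. Its core is a barrel of stacked rings, alpha subunits outside and beta subunits inside, and the beta subunits Psmb5, Psmb6 and Psmb7 carry the proteolytic sites. Lymphoid and interferon-exposed cells put Psmb8, Psmb9 and Psmb10 in their place, which gives the immunoproteasome. The cap binds the barrel at its ends. Its ATPases Psmc1 to Psmc6 unfold the substrate, and its other subunits recognise ubiquitin, remove it and hold the lid together. Psme1 and Psme2 form an alternative activator that interferon induces, Psme3 and Psme4 form nuclear activators, and Psmf1 is named as an inhibitor. Subunit genes are known to be transcribed together, under NFE2L1 when proteasome activity is short, through antioxidant response elements.

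Total expected counts ranged from 16062805 to 18028815 per library, so depth differed little. The libraries differed in cell content. Of the 8 leukocyte markers, 8 reached 1 CPM (the count scaled to library size) in OTUB1_KD and in SFD@M, against 2 in NC and 1 in Blank. Their summed level was 6.61 to 6.84 CPM in NC and 2.87 to 3.80 in Blank, against 3555 to 9310 in OTUB1_KD and 4991 to 5483 in SFD@M. The 8 lung epithelial markers summed to 16.6 to 19.9 CPM in NC and 11.7 to 12.3 in Blank, with Nkx2-1 at 0 in NC and Sftpa1 at 0 in Blank. In OTUB1_KD they summed to 21621 to 50096 CPM and in SFD@M to 56891 to 59142. The 8 endothelial markers summed to at most 5.89 CPM in NC and 2.69 in Blank, against 1117 to 2771 in OTUB1_KD and 2774 to 3869 in SFD@M. Markers of dividing cells went the other way, at 2950 to 3031 CPM in NC, 2993 to 3029 in Blank, 203 to 934 in OTUB1_KD and 28.3 to 99.3 in SFD@M. The NC and Blank libraries, labelled as lung tumour tissue, therefore held most of these markers of lung and of blood cells at or near 0. The highest were Hopx, which averaged 16.1 CPM in NC and 9.91 in Blank and made most of the lung epithelial sums, and Lyz2, at 3.71 and 2.41. These shifts accompany every comparison of OTUB1_KD with NC and of SFD@M with Blank below, and their part in the results was not tested. In such bulk libraries, fewer cells of a type and less RNA per cell cannot be told apart.

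Otub1 itself was measured at 79.3, 76.6 and 72.8 CPM in NC and at 57.7, 46.3 and 71.8 in OTUB1_KD. The groups did not overlap, but the difference of -0.36 ± 0.18 (log2, SE) did not pass edgeR's quasi-likelihood test (adjusted p = 0.11). An exact two-sided permutation test gave p = 0.1, the smallest that 3 against 3 allows. After SFD@M, Otub1 stood at 46.1, 45.0 and 47.2 CPM, against 77.9, 73.9 and 73.8 with saline (log2 -0.71 ± 0.05, edgeR adjusted p = 5.8e-06). The test of the difference between these changes gave -0.33 ± 0.19 (adjusted p = 0.24). Without OTUB1_KD replicate 2 the knockdown difference in Otub1 was -0.24.

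The promoters below show the letters searched for in these genes: the core of the antioxidant response element in 2 catalytic subunits, and an interferon-stimulated response element core in an activator gene that was higher in OTUB1_KD and SFD@M. They are from RefSeq on GRCm38.p6, from 250 bases before the annotated start to 20 after it, 5′ to 3′ on the gene's strand. Capitals mark matches, on either strand, to TGACNNNGC, the antioxidant response element core, or to the interferon-stimulated response element core. Psmb5 lies on the minus strand at chr14:54617976-54618245, Psmb6 on the plus strand at chr11:70525107-70525376 and Psme1 on the plus strand at chr14:55578244-55578513.
Psmb5: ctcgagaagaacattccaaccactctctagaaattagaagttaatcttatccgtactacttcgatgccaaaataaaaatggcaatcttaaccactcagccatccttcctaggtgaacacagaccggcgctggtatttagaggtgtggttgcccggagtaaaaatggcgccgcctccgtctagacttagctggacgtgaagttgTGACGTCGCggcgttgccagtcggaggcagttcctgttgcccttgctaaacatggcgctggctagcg
Psmb6: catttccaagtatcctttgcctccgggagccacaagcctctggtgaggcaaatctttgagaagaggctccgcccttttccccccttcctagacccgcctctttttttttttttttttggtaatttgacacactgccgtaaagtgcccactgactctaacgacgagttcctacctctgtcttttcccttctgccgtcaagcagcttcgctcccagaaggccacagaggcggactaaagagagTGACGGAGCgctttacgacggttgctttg
Psme1: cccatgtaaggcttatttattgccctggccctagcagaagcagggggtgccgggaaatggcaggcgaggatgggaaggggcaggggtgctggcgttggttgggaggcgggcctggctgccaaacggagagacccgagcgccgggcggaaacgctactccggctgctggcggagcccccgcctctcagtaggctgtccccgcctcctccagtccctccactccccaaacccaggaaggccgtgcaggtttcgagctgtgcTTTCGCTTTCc
The match began 47 bases before the start in Psmb5, 9 bases before it in Psmb6 and 9 bases after it, on the opposite strand, in Psme1.

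The table held promoters for 39 of the 47 proteasome genes, each searched over 250 bases before to 50 after the start, and no matches of different motifs overlapped. TGACNNNGC was found in 6 of the 39 (15.4%), Psmb5, Psmb6, Psmc6, Psmd9, Psmd12 and Psme4, against 14.0% of all 27025 genes with a promoter of that length. CCAAT, the box bound by NF-Y, was found in 13 (33.3%) against 41.1%. The interferon-stimulated response element core was in 5 (12.8%), Psmb3, Psmd4, Psmd9, Psme1 and Psmg4, against 3.99%. Of these, only Psme1 was called higher in OTUB1_KD and SFD@M. Psmb3, Psmd4, Psmd9 and Psmg4 were called lower in SFD@M and not called in OTUB1_KD. Psme2 and Psme2b, called higher in both, had no match to this core. Whether the motif goes with the direction of change was not tested. TTCNNNGAA, the interferon-gamma activation site, was in Psmd2 and Psmg1 (5.13%) against 9.55%. These counts describe letters in a window and are not binding data.

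Summed over the 49 genes, the order of the groups was Blank, NC, OTUB1_KD and SFD@M. The sum was 7187 ± 63.4 CPM in Blank (SD, n = 3), 5368 ± 74.6 in NC, 4539 ± 777 in OTUB1_KD and 3522 ± 65.1 in SFD@M. CPM here are scaled by the trimmed mean of M-values (TMM) over all 12 libraries. As a share of all counts this was 0.714% to 0.720% in Blank, 0.512% to 0.523% in NC, 0.388% to 0.504% in OTUB1_KD and 0.349% to 0.365% in SFD@M. On both of these scales OTUB1_KD and SFD@M were each lower than their own control, and no 2 groups overlapped. Scaled by upper-quartile factors, OTUB1_KD reached 5300 CPM and overlapped NC, whose lowest library was at 5218. OTUB1_KD was the uneven group. Across members with a group mean of at least 10 CPM (44 members, 43 in SFD@M), the median coefficient of variation between libraries was 22.8% in OTUB1_KD, against 2.81% in NC, 1.92% in Blank and 5.36% in SFD@M. Its replicate 2 was the lowest of the 3 in 37 of 47 measured members, and lay at or below the highest SFD@M library in 32, against 6 for replicate 1 and 9 for replicate 3. The same replicate held the least of 4 Y-linked transcripts, Ddx3y, Eif2s3y, Kdm5d and Uty, which summed to 0.166% of the NC mean there, 34.9% in replicate 1, 6.86% in replicate 3 and at most 0.446% in SFD@M.

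**Figure D1:**
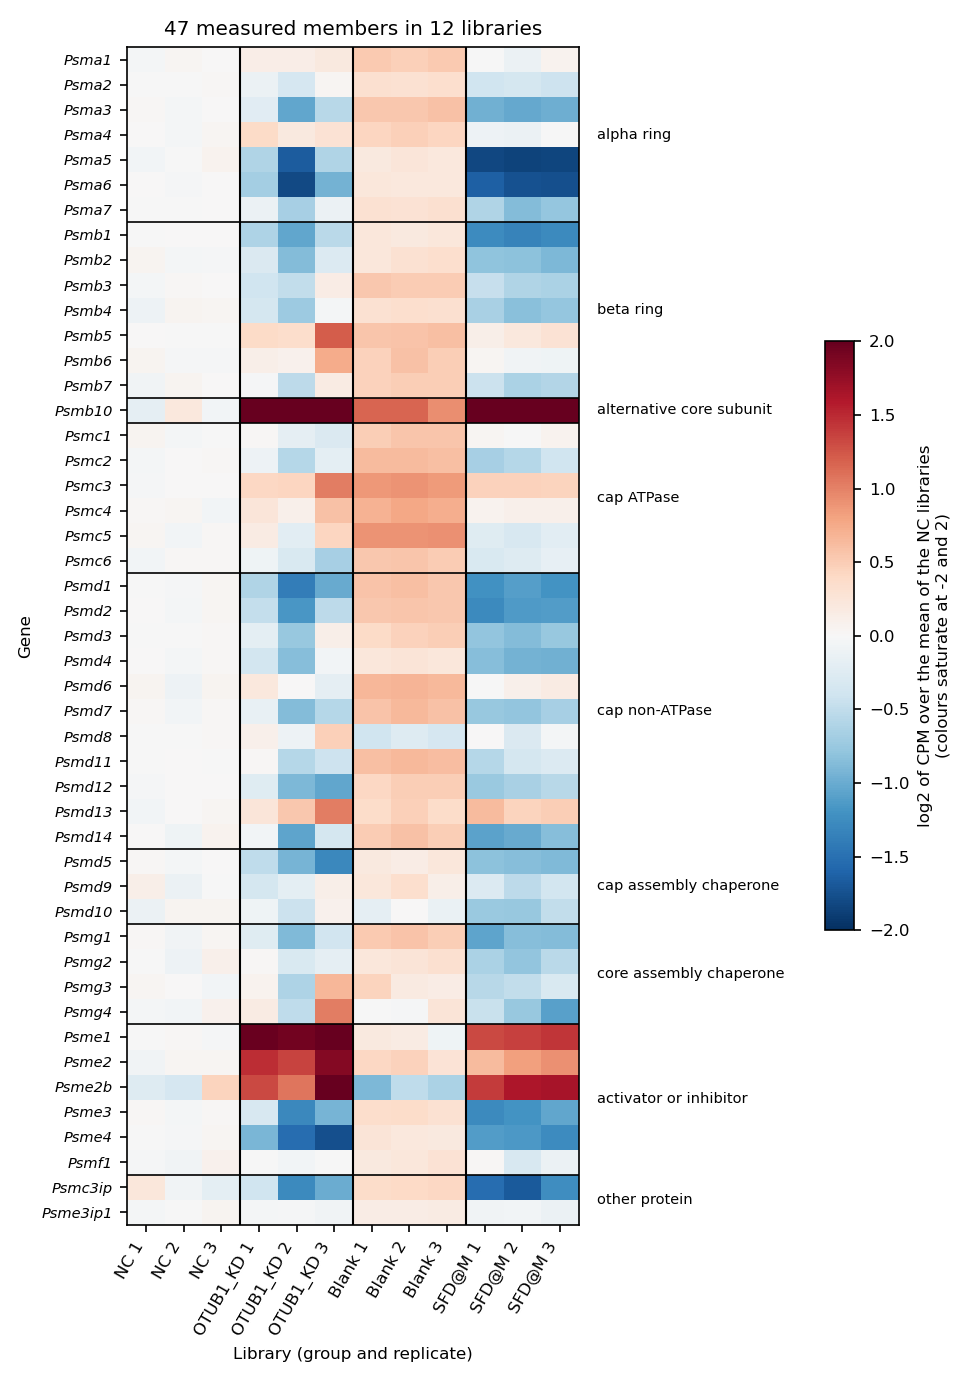
Each row is one of the 47 members that passed the filter on low counts, grouped by role, and each column a library; colour is the log2 ratio of its CPM to the mean of the 3 NC libraries. Most rows are red in Blank and blue in SFD@M, OTUB1_KD replicate 2 is the bluest library of its group, and Psmb10, Psme1, Psme2 and Psme2b are red in both OTUB1_KD and SFD@M.

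Treatment with SFD@M went with lower levels of nearly the whole particle. Against Blank, 41 of 47 members fell and 5 rose, where a call is an adjusted p under 0.05 in edgeR's quasi-likelihood test over all genes. The background was high: 88.1% of the 14824 genes tested were called, 38.7% lower and 49.5% higher. The median log2 fold change of the members was -1.02, against 0.23 over all genes tested. All 7 alpha ring subunits, all 7 beta ring subunits and all 6 cap ATPases fell, with medians of -1.06, -1.07 and -0.71. Of the 11 other cap subunits 9 fell and Psmd8 rose. The 3 cap chaperones, the 4 core chaperones and 3 of the 6 activators and inhibitors also fell. By overlap of libraries, 4 members lay above and 41 below all Blank libraries, against 90.2% of all genes not overlapping, 50.5% above and 39.7% below. All 41 falls were called again in each fit that left out a library.

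The deepest fall was that of Psma5, an alpha ring subunit, from 302, 310 and 304 CPM in Blank to 74.0, 72.9 and 74.0 in SFD@M (log2 -2.06 ± 0.05, SE, edgeR adjusted p = 1.7e-08). Its ring neighbour Psma6 fell from 426, 422 and 423 CPM to 117, 109 and 108 (log2 -1.93 ± 0.05). Both changed about as much in each library, and the groups were far apart. By contrast, 2 other alpha subunits fell by less: Psma1 by 0.53 and Psma4 by 0.53 on the log2 scale. The scaffold subunits Psmd1 and Psmd2, the largest proteins of the cap, fell by 1.75 and 1.73. Psmd1 went from 372, 379 and 365 CPM in Blank to 108, 117 and 109 in SFD@M, and Psmd2 from 580, 584 and 583 to 165, 181 and 184. Psmd14, the cap's own deubiquitinase, fell by 1.51, and the beta ring subunit Psmb1 also by 1.51.

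The catalytic subunits Psmb5 and Psmb6 had smaller fold changes than the 4 subunits of their ring that are not catalytic, which fell by 1.07 to 1.51. Psmb7, also catalytic, lay close to the least of these falls. No test compared the genes. Psmb5 was at 73.9, 75.0 and 76.3 CPM in Blank and at 54.5, 58.3 and 61.6 in SFD@M (log2 -0.38 ± 0.06, edgeR adjusted p = 0.00050), and this call was lost when all 12 libraries shared one spread (-0.37, adjusted p = 0.096). Psmb6 went from 102, 112 and 104 CPM to 76.1, 71.1 and 70.3 (-0.56 ± 0.06), and Psmb7 from 163, 167 and 167 to 87.9, 77.0 and 79.1 (-1.03 ± 0.06). Each catalytic subunit was lower in all 3 SFD@M libraries than in any Blank library.

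The core chaperones pair the alpha subunits and build the ring: Psmg1 fell by 1.46 ± 0.09, Psmg2 by 0.92 ± 0.09, Psmg3 by 0.72 ± 0.13 and Psmg4 by 0.82 ± 0.20. Psmg1 was at 28.0, 28.9 and 27.3 CPM in Blank and at 9.33, 10.7 and 10.6 in SFD@M. The cap chaperones, which hold the ATPases until the base is complete, fell by 1.05 ± 0.05 (Psmd5), 0.63 ± 0.09 (Psmd9) and 0.56 ± 0.10 (Psmd10). Among the activators, Psme3 fell by 1.51 ± 0.07 and the inhibitor Psmf1 by 0.37 ± 0.09 on the log2 scale. Psme4 fell from 264, 255 and 252 CPM in Blank to 102, 99.3 and 92.3 in SFD@M (edgeR adjusted p = 1.9e-07).

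The 5 members that rose in SFD@M were Psmb10, Psme2b, Psme1, Psme2 and Psmd8. Psmb10, the immunoproteasome counterpart of Psmb7, was at 10.2, 10.2 and 8.72 CPM in Blank and at 47.5, 52.7 and 49.0 in SFD@M (log2 2.35 ± 0.09, edgeR adjusted p = 1.5e-07). Psme1 rose from 55.8, 54.7 and 45.9 CPM to 121, 126 and 131 (1.27 ± 0.08), and Psme2 from 71.3, 74.1 and 65.0 to 83.2, 94.7 and 102 (0.40 ± 0.09). On deposited TPM, a unit corrected for transcript length, the rise of Psme2 was 0.11 on the log2(TPM + 1) scale and not called (limma adjusted p = 0.27). Psme2b rose by 2.21 ± 0.23 from under 1 CPM. It made 0.731% of the joint TPM of Psme2b and Psme2 in Blank and 2.60% in SFD@M, on group average. Psme2b is a near copy of Psme2, so the genes may share reads, which was not tested. Psmd8, a cap lid subunit, was at 78.4, 85.8 and 81.7 CPM in Blank and at 104, 84.5 and 100 in SFD@M, where the groups overlapped. Its rise of 0.22 ± 0.08 (edgeR adjusted p = 0.036) was not called without SFD@M replicate 1 (0.18), SFD@M replicate 3 (0.20) or any 1 of the Blank libraries (0.18, 0.25 and 0.21), and its direction turned on log2(TPM + 1) (-0.06). Psmd13, another lid subunit, differed by 0.12 ± 0.07 and was the 1 member not called (adjusted p = 0.14).

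**Figure D2:**
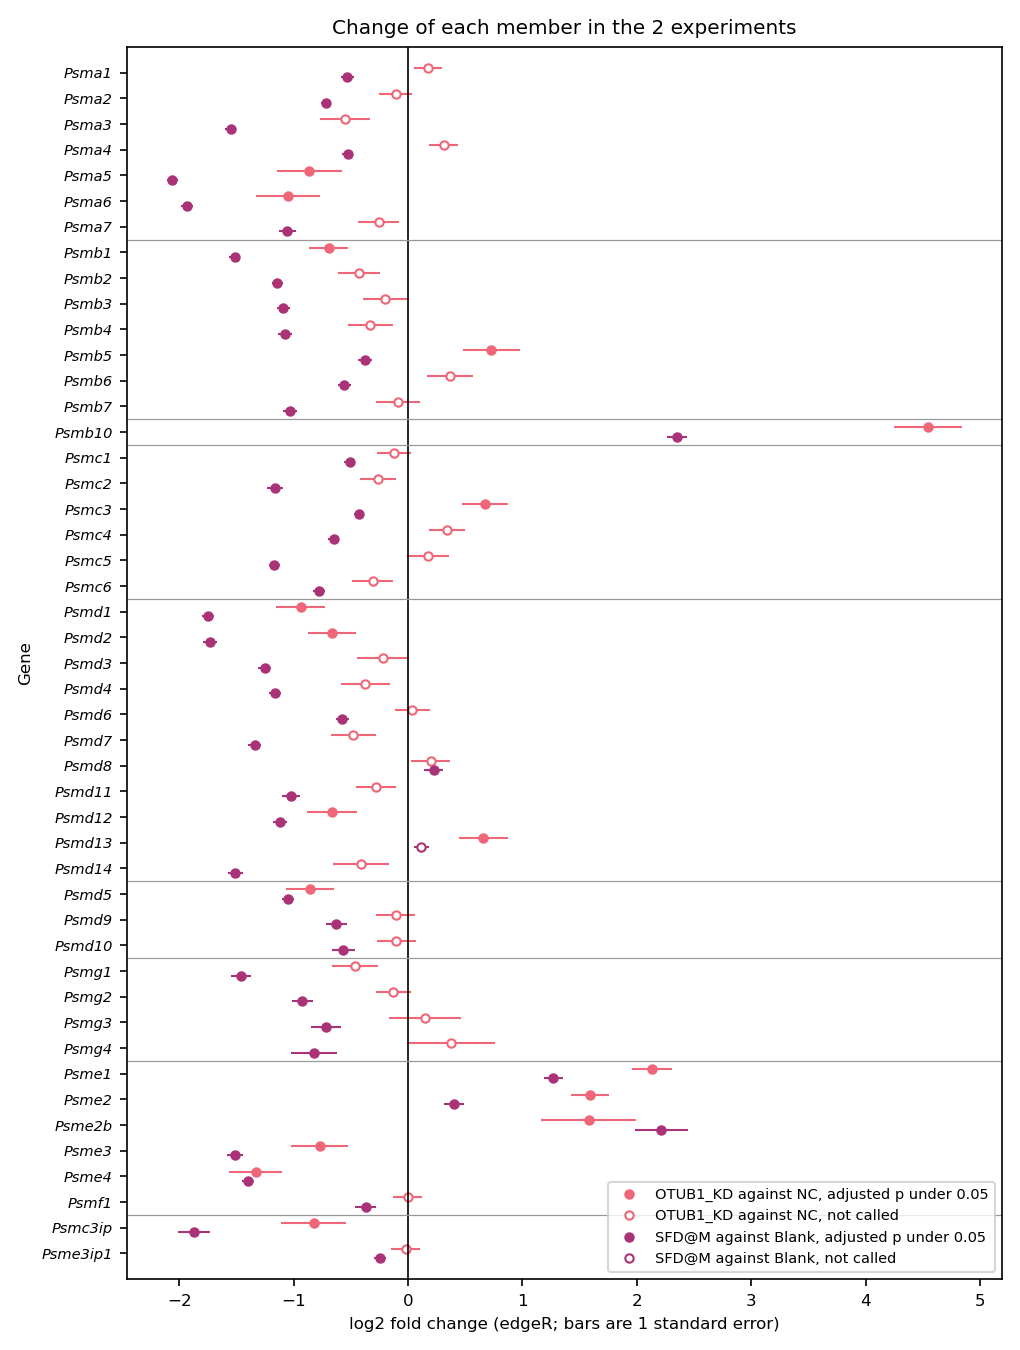
Points are the edgeR log2 fold change of each member, ordered by role, in OTUB1_KD against NC and in SFD@M against Blank; bars are 1 standard error, and open points did not pass an adjusted p of 0.05. In SFD@M against Blank 41 members lie below 0 and are called, and in OTUB1_KD against NC most points are open and their bars wider.

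Knockdown tumours differed from NC less evenly, with 7 of 47 members higher and 10 lower by the same test. This is a smaller share than the background of 65.7% of 14785 genes called, 39.9% higher and 25.8% lower. On the log2(TPM + 1) scale limma called 4 members higher and 20 lower, a split unlike that of the counts. Over all 14785 genes it called 5403 higher and 4976 lower, against 5903 and 3818 on counts. TPM also moved the median of all genes from 0.16 to -0.02 here, and from 0.23 to -0.03 in SFD@M against Blank. Relative to the median of all genes, the members' median was -0.29 on counts and -0.36 on TPM. By overlap of libraries, 11 members lay above and 18 below all NC libraries, against 79.3% of all genes not overlapping, 43.5% above and 35.8% below.

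Not all 17 calls stood when a library was left out. The number called fell to 8 without NC replicate 1, 8 without NC replicate 2 and 9 without NC replicate 3, and rose to 26 without OTUB1_KD replicate 1. Over all genes the calls moved from 9721 to 8000, 7991, 8058 and 11141 in these fits, in the same order. Called in each of the 6 such fits were the rises of Psmb10, Psme1 and Psme2 and the falls of Psma6, Psmb1, Psmd1, Psmd5 and Psme4.

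Psmb10 had the largest change, from 4.02, 5.30 and 4.38 CPM in NC to 84.2, 83.6 and 148 in OTUB1_KD, a 23.3-fold rise (log2 4.54 ± 0.30, edgeR adjusted p = 4.4e-05). Psme1 rose from 48.3, 49.6 and 47.9 CPM to 191, 186 and 255 (2.13 ± 0.18), and Psme2 from 51.3, 55.0 and 55.1 to 149, 137 and 193 (1.59 ± 0.17). In these 3 genes every OTUB1_KD library was above every NC library, and replicate 3 was the highest. Psme2b was higher by 1.58 ± 0.41, a call lost without NC replicate 1 (1.45) or NC replicate 2 (1.42).

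Of the standard subunits 3 rose, Psmb5, Psmc3 and Psmd13. Psmb5 went from 50.8, 49.9 and 50.1 CPM in NC to 65.9, 64.0 and 117 in OTUB1_KD (0.73 ± 0.25, edgeR adjusted p = 0.036). Replicate 3 lay well above the other two, and the call was lost on TPM (0.42, adjusted p = 0.11) and without any 1 of the NC libraries (0.70 to 0.72, adjusted p up to 0.10). Psmc3, a cap ATPase, rose by 0.67 ± 0.20 and Psmd13 by 0.66 ± 0.21, called in 3 and 2 of the 6 fits that left out a library. Without OTUB1_KD replicate 3 the rises were 0.39 for Psmb5, 0.44 for Psmc3 and 0.43 for Psmd13. Psmb6 and Psmb7 differed by 0.37 ± 0.20 and -0.08 ± 0.19 and were not called. With 1 library left out, Psmb6 ranged from 0.13 (without OTUB1_KD replicate 3) to 0.46, and Psmb7 from -0.24 to 0.07 (without OTUB1_KD replicate 2).

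Among the falls, Psme4, an activator used in chromatin and sperm, went from 219, 218 and 226 CPM to 117, 77.1 and 65.6 (log2 -1.33 ± 0.23, edgeR adjusted p = 0.0024). Psma6 went from 366, 359 and 369 CPM to 227, 105 and 190 (-1.05 ± 0.28) and Psma5 from 252, 261 and 275 to 173, 83.1 and 172 (-0.86 ± 0.28). In both alpha subunits replicate 2 was the lowest library, and the groups did not overlap. The call of Psma5 was lost without NC replicate 1 (-0.91), NC replicate 2 (-0.88) or NC replicate 3 (-0.86). Psmd1 fell by 0.94 ± 0.21 and Psmd5 by 0.85 ± 0.21. Psme3 fell by 0.77 ± 0.25, called in 1 of the 6 fits with a library left out (-0.59 without OTUB1_KD replicate 2 and -0.71 without OTUB1_KD replicate 3, both not called). No core chaperone was called on counts: Psmg1 differed by -0.46 ± 0.20, Psmg2 by -0.13 ± 0.16, Psmg3 by 0.15 ± 0.31 and Psmg4 by 0.37 ± 0.38. Psmg1 was called lower by limma on log2(TPM + 1) (-0.68, adjusted p = 0.017) and log2(FPKM + 1) (-0.48), by edgeR over all 12 libraries (-0.48, adjusted p = 0.014) and without OTUB1_KD replicate 1 (-0.60). With 1 library left out, Psmg2 ranged from -0.23 to -0.08, Psmg3 from -0.21 to 0.40 and Psmg4 from -0.12 to 0.65, so the sign of the last 2 turned, in each case without OTUB1_KD replicate 3. The inhibitor Psmf1 differed by -0.00 ± 0.13, and the cap chaperones Psmd9 and Psmd10 by -0.11 ± 0.17 and -0.10 ± 0.17 (-0.25 to -0.02 and -0.22 to 0.01 with 1 library left out).

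The 2 experiments share no library, so their calls can be set side by side. Of the 10 members that fell in OTUB1_KD, 10 also fell in SFD@M, and they are 24.4% of the 41 that fell there. Of the 7 that rose in OTUB1_KD, Psmb10, Psme1, Psme2 and Psme2b also rose in SFD@M, Psmb5 and Psmc3 fell there, and Psmd13 was not called. Over all 14504 genes tested in both, 91.1% of the 3738 that fell in OTUB1_KD also fell in SFD@M, and 94.6% of the 5788 that rose also rose, so calls common to both experiments were general among all genes. Genes that rose in OTUB1_KD and fell in SFD@M, as Psmb5 and Psmc3, were 1.16% of all genes that rose. For both, Blank stood above NC and SFD@M lay between them. Psmb5 averaged 50.3 CPM in NC, 75.1 in Blank and 58.1 in SFD@M, and Psmc3 104, 190 and 142.

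Tested directly in 1 fit over all 12 libraries, the change in SFD@M was lower than that in OTUB1_KD for 31 of 47 members and higher for none. Over all genes 23.1% of 15304 were called, 10.8% lower and 12.4% higher. The members' median difference was -0.79, against 0.07 over all genes tested. All 7 beta ring subunits, 6 of 7 alpha ring subunits, 4 of 6 cap ATPases, 8 of 11 other cap subunits and 2 of 4 core chaperones were called, and no cap chaperone was. The largest difference was for Psmb10 (-2.17 ± 0.30, edgeR adjusted p = 0.0014), which rose more in OTUB1_KD. Among the standard subunits it was for Psmc5, a cap ATPase at 105, 97.9 and 104 CPM in NC, 115, 88.2 and 138 in OTUB1_KD, 189, 190 and 193 in Blank, and 86.3, 81.4 and 88.4 in SFD@M (-1.31 ± 0.20). For Psmc5 the Blank libraries stood apart, above those of all other groups. Called with the next largest differences were Psma5 (-1.17), Psme2 (-1.16) and Psmb5 (-1.08), and Psma4 (-0.81 ± 0.12) had one of the 3 smallest p-values. With a library left out, between 19 members (without NC replicate 2) and 36 (without OTUB1_KD replicate 2) were called, and 19 members were called in all 12 such fits. Over all genes these 2 fits called 2110 of 15504 and 5523 of 15433.

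**Figure D3:**
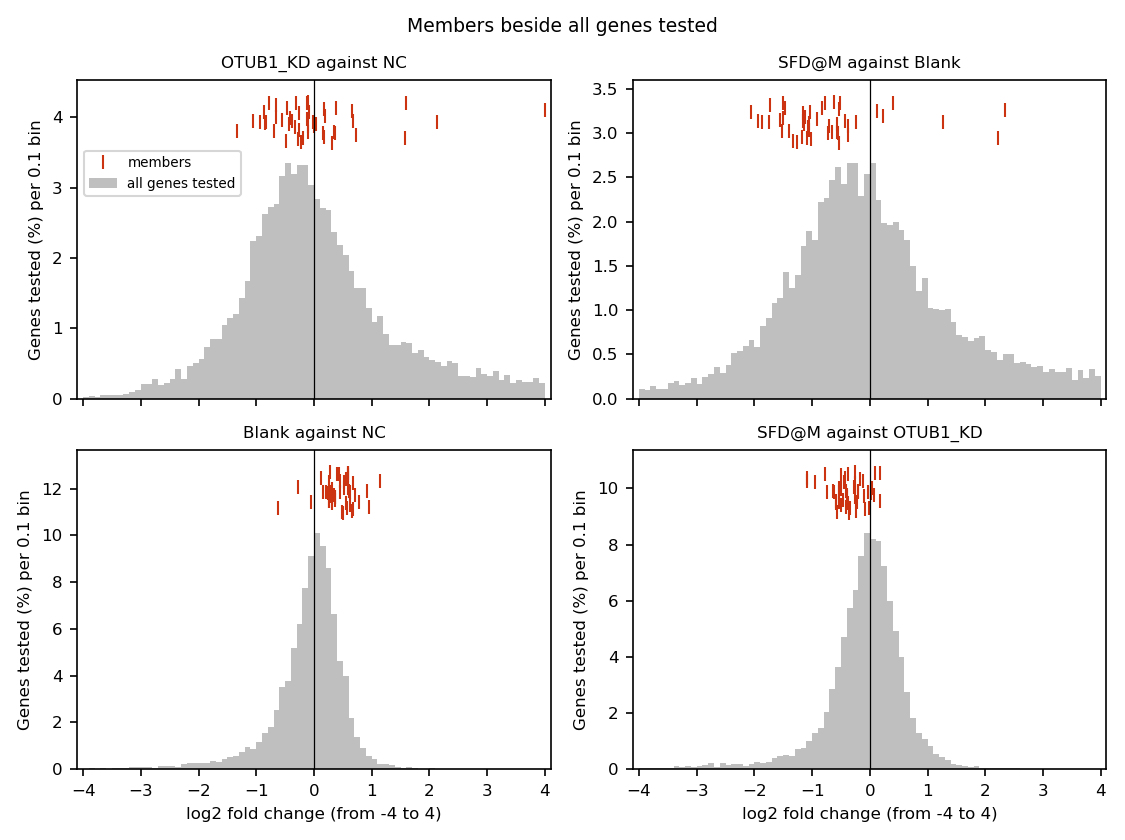
Grey bars give the percent of all genes tested in each bin of log2 fold change and red ticks the members, spread vertically only to be seen; the rise of Psmb10 in OTUB1_KD, at 4.54, is drawn at the right edge. The members' median lies left of that of all genes in OTUB1_KD against NC (-0.13 against 0.16), in SFD@M against Blank (-1.02 against 0.23) and in SFD@M against OTUB1_KD (-0.38 against -0.02), and right of it in Blank against NC (0.45 against -0.00).

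The 2 control groups differed from each other, although both were control tumours of the same cell line. This comparison crosses the experiments, so the lentivirus, the saline and whatever else differed between them cannot be told apart. In Blank, 43 of 47 members were higher than in NC and 1 was lower, against a background of 74.3% of 12087 genes called, 37.0% higher and 37.2% lower. The median was 0.45, against -0.00 over all genes tested. The libraries of 42 members lay above and of 2 below all NC libraries, against 74.9% of all genes not overlapping, 33.0% above and 42.0% below. Of the 31 standard subunits 30 were higher. The cap ATPases led with a median of 0.73, followed by the other cap subunits at 0.58, the beta ring at 0.53 and the alpha ring at 0.37.

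Psmb10 had the largest rise, 1.14 ± 0.12, from 4.02, 5.30 and 4.38 CPM in NC to 10.2, 10.2 and 8.72 in Blank. Among standard subunits Psmc5 rose by 0.95 ± 0.03, Psmc3 by 0.92 ± 0.03 and Psmc4 by 0.78 ± 0.04, all of them cap ATPases, and Psmd6 by 0.71 ± 0.04. Psmc3 went from 102, 104 and 105 CPM to 189, 192 and 188. Psmd8 was the exception, at 102, 102 and 104 CPM in NC and 78.4, 85.8 and 81.7 in Blank (-0.28 ± 0.04, edgeR adjusted p = 7.3e-11). Psme1 rose by 0.15 ± 0.05, a call lost without NC replicate 3 (0.14), Blank replicate 1 (0.10) or Blank replicate 2 (0.12), and 0.24 without Blank replicate 3. The narrow errors reflect control libraries that differed little, and when all 12 libraries shared one spread 19 members were called, all higher. That fit called 2699 of 15304 genes, 760 of them higher. NC and Blank library pairs varied by 1.32 to 2.00 times the sampling variance, against 16.8 to 31.7 times in SFD@M and 96.9 to 160 times in OTUB1_KD.

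Between OTUB1_KD and SFD@M, which also crosses the experiments, edgeR called 0 of 47 members, against 0.0134% of 14914 genes. At an unadjusted p under 0.05 it found 11 members, all lower in SFD@M, and 19.9% of all genes. DESeq2 called 4 members, beside 1372 of 14914 genes, 897 of them lower. A fit that shared one spread over all 12 libraries called 12 members, beside 2863 of 15304 genes, 1874 lower. The fit without OTUB1_KD replicate 2 called 10 members, beside 1875 of 15133 genes, 1331 lower. All members called in these fits were lower in SFD@M. The median member was lower in SFD@M by -0.38 on the log2 scale, against -0.02 over all genes. It was -0.56 without OTUB1_KD replicate 2 and -0.24 without OTUB1_KD replicate 3. The groups did not overlap for 13 members, all lower in SFD@M, against 28.2% of all genes, 13.8% above and 14.5% below. Psmb10 differed by -1.08 ± 0.26 (edgeR adjusted p = 0.10), with 84.2, 83.6 and 148 CPM in OTUB1_KD and 47.5, 52.7 and 49.0 in SFD@M. Without OTUB1_KD replicate 2 it was called (-1.22, adjusted p = 0.032), as were Psme1 (-0.82) and Psme2 (-0.88). These comparisons share their libraries with those above and add no independent evidence.

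Shares of RNA between alternative and standard subunit genes were taken from the deposited TPM, which is per length. Protein and the make-up of the particle were not measured, so these shares do not show an exchange of subunits. Of the joint TPM of Psmb10 and Psmb7, Psmb10 made 2.40% ± 0.21 (SD, n = 3) in NC and 3.62% ± 0.30 in Blank. Its share was 38.8% ± 6.20 in OTUB1_KD and 29.2% ± 2.38 in SFD@M. The same shares for the other immunoproteasome subunits, which the rule leaves out, were 29.3% and 21.8% in NC and Blank for Psmb8 beside Psmb5, against 59.2% and 44.0% in OTUB1_KD and SFD@M. For Psmb9 beside Psmb6 they were 10.9% and 6.30%, against 55.1% and 36.1%. Psme1 and Psme2 together made 59.5% and 58.6% of the TPM of the 4 main activator genes in NC and Blank, and 90.4% and 87.1% in OTUB1_KD and SFD@M. No library of OTUB1_KD or SFD@M fell within the range of NC or Blank for these shares. Leukocyte, lung and endothelial markers were likewise higher in OTUB1_KD and SFD@M than in NC and Blank, as given above. Between OTUB1_KD and SFD@M the mean shares were higher in OTUB1_KD, as was the mean leukocyte sum (5912 against 5193 CPM). That sum ranged from 3555 to 9310 CPM in OTUB1_KD, around the 4991 to 5483 of SFD@M. Lyz2 made most of it, at 4924 CPM in OTUB1_KD and 4417 in SFD@M. Ptprc went the other way (200 and 215 CPM), and the other leukocyte markers averaged higher in OTUB1_KD. The mean lung epithelial sum (38520 against 57882 CPM) and endothelial sum (2131 against 3320 CPM) were lower in OTUB1_KD. The part of cell content in the shares was not tested.

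**Figure D4:**
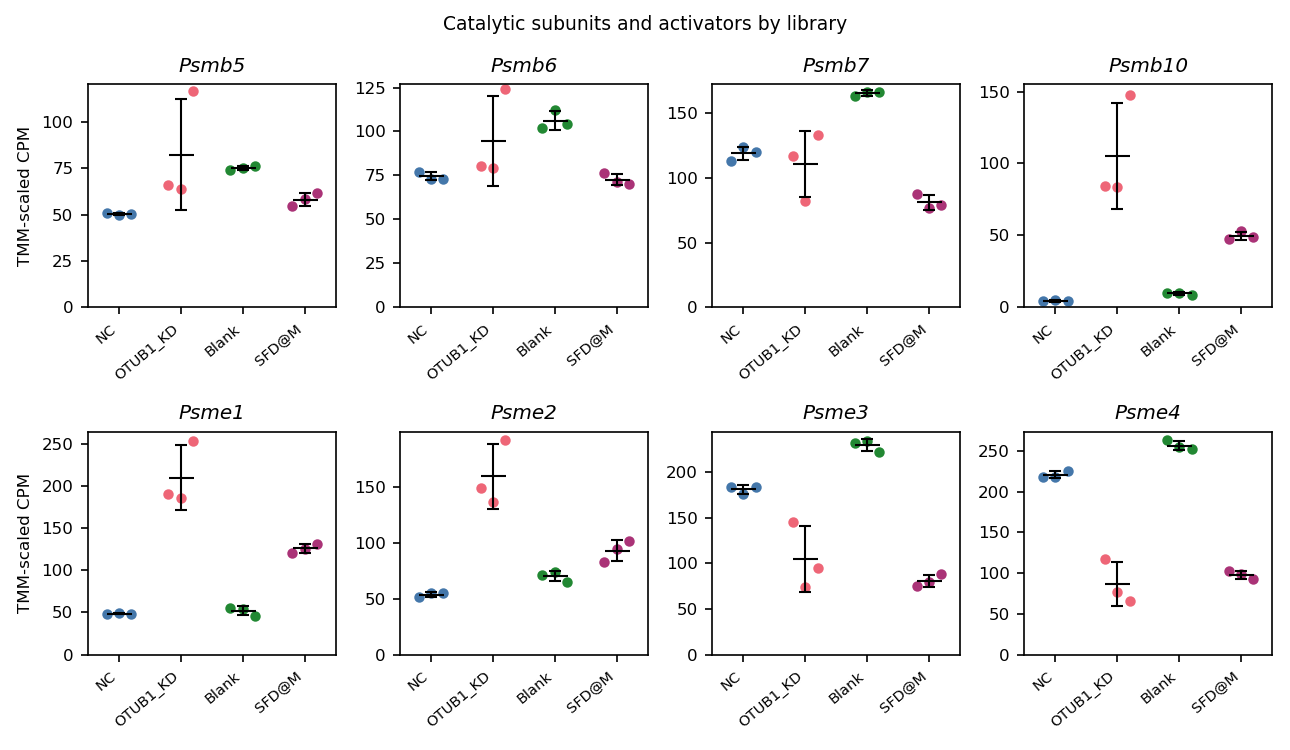
Points are TMM-scaled CPM of single libraries, with the mean (short line) and SD of each group, for the 3 catalytic subunits, Psmb10 and 4 activator genes; every axis starts at 0. Psmb10, Psme1 and Psme2 are higher in OTUB1_KD and SFD@M than in NC and Blank, Psme3 and Psme4 are lower, and Psmb5 and Psmb6 of OTUB1_KD replicate 3 lie above the other libraries of their group.

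Levels of the standard subunits were compared on TPM, since that unit is per length. They were not equal within the core or within the cap, although each of these parts holds its own subunits in equal number. Core and cap subunits need not be equal in number to each other. In NC the median was 331.9 TPM over the 14 core subunits and 125 over the 17 cap subunits. The core ranged from Psmb5 (132 TPM) to Psma6 (779 TPM) and the cap from Psmd13 (64.8) to Psmd4 (270.2), a ubiquitin receptor. In Blank the medians were 444 and 199 TPM, in OTUB1_KD 222 and 104, and in SFD@M 161 and 88.1. The levels of the 14 core subunits lay closer together in OTUB1_KD and SFD@M. Their coefficient of variation was 51.1% ± 0.374 in NC and 46.0% ± 0.660 in Blank (SD over 3 libraries). It was 27.3% ± 4.19 in OTUB1_KD and 26.6% ± 2.33 in SFD@M. Psma6 exceeded Psmb5 5.91-fold in NC, and in SFD@M the highest core subunit, Psmb3, exceeded the lowest, Psma5, 2.43-fold. The cap changed little in this respect, with 39.9% in NC, 37.8% in OTUB1_KD, 38.7% in Blank and 35.1% in SFD@M. Psma6, the highest core subunit in NC and in Blank, was at 206 TPM in SFD@M.

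**Figure D5:**
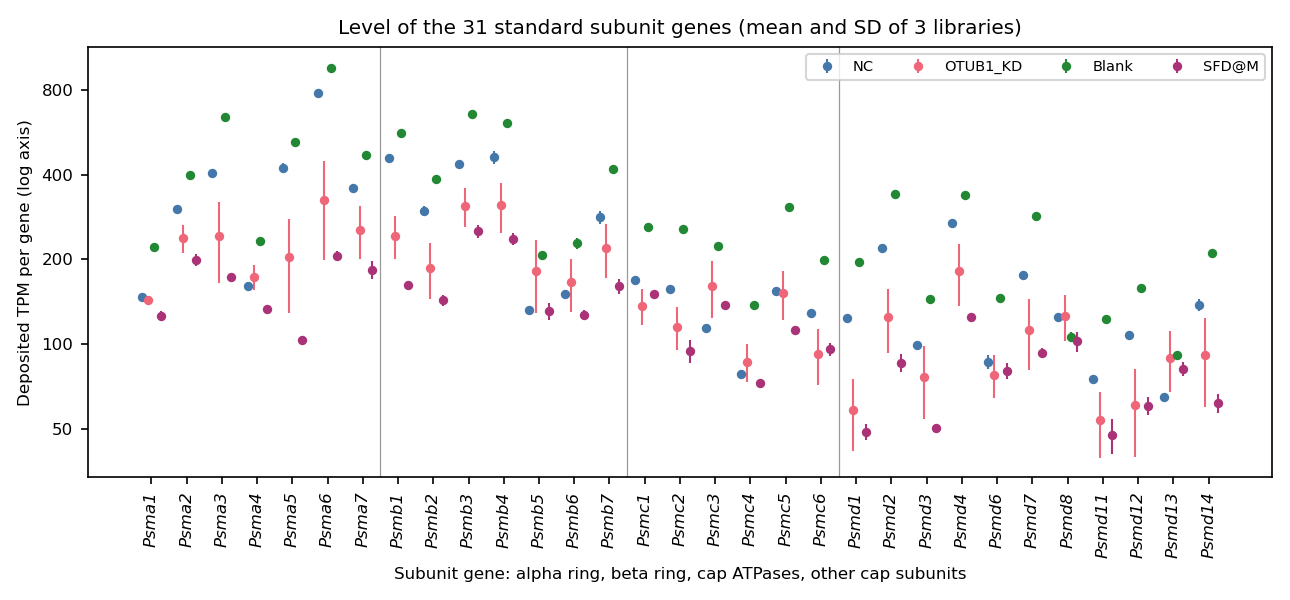
Points are the mean deposited TPM of each of the 31 standard subunit genes on a log axis, with the SD of 3 libraries, in the 4 groups. Blank is the highest group for all genes but Psmd8, SFD@M is mostly the lowest, and the core subunits lie closer together in OTUB1_KD and SFD@M than in NC and Blank.

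Of the 49 genes, 24 had 1 transcript in the table, and in the others the level could move with the transcript measured. Psme4 and Psmf1 showed this. The main transcript of Psme4 made 89.1% ± 1.02 of its TPM in NC and 93.0% ± 1.05 in Blank (SD, n = 3). It made 76.8%, 57.3% and 47.7% in the OTUB1_KD libraries and 72.4%, 71.6% and 59.1% in the SFD@M libraries. All 6 were below every control library. For Psmf1 the main transcript made 96.4%, 77.4% and 82.3% in NC, 80.4%, 54.7% and 35.6% in OTUB1_KD, 85.8%, 87.0% and 78.4% in Blank, and 52.0%, 75.9% and 72.5% in SFD@M, so that OTUB1_KD overlapped NC and SFD@M did not overlap Blank. All these shares are of deposited TPM and rest on the authors' estimates of how reads divide between overlapping transcripts. No test was run on them. They were singled out after the values were seen.

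Psma8, an alpha subunit of male germ cells, and Psmb11, the beta subunit of thymic epithelium, were near the floor and not tested. Psma8 had 0 counts in all NC and Blank libraries, 6, 8 and 7 in OTUB1_KD and 3, 6 and 2 in SFD@M. A count of 0 over the 3 NC libraries allows up to 0.0627 CPM, counting 3 reads over the group, and over the 3 Blank libraries up to 0.0583 CPM. Psmb11 had at most 2 counts in any library. The genes that match only by name behaved unlike each other. Psmc3ip, a meiotic recombination factor, fell from 14.7, 15.0 and 15.2 CPM in Blank to 3.95, 3.55 and 4.80 in SFD@M (-1.87 ± 0.14, edgeR adjusted p = 5.6e-06). Psme3ip1, which binds the activator Psme3, fell by 0.24 ± 0.05 there and differed by -0.02 ± 0.13 in OTUB1_KD.

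Other genes of the pathway, from a list chosen with earlier results of these data known, were followed for comparison. It held 22 genes measured here. Against Blank, 16 fell and 5 rose in SFD@M, beside 38.7% of all genes tested lower and 49.5% higher. Against NC, 9 were lower and 3 higher in OTUB1_KD, beside 25.8% and 39.9% of all genes. In Blank 15 were higher than in NC and 3 lower, beside 37.0% and 37.2%. Between OTUB1_KD and SFD@M none was called, beside 0.0134%. In the test of the difference 6 were lower and 1 higher, beside 10.8% and 12.4%.

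Of the remaining cap subunits, Adrm1, a ubiquitin receptor, went from 87.1, 91.5 and 92.0 CPM in Blank to 57.2, 56.8 and 56.9 in SFD@M (-0.67 ± 0.05), and Sem1 fell by 0.70 ± 0.05. In OTUB1_KD they differed by 0.37 ± 0.21 and -0.18 ± 0.30 and were not called on counts. Adrm1 was called higher without OTUB1_KD replicate 2 (0.52, edgeR adjusted p = 0.047) and was at 0.13 without replicate 3. Sem1 was called lower without OTUB1_KD replicate 3 (-0.60, edgeR adjusted p = 0.0071) and by limma on log2(TPM + 1) (-0.70) and log2(FPKM + 1) (-0.50), and was at 0.01 without replicate 1. Pomp, the chaperone that completes the core, fell by 0.26 ± 0.05 in SFD@M and differed by 0.24 ± 0.14 in OTUB1_KD. Akirin2, which carries proteasomes into the nucleus, fell by 0.29 ± 0.08 in SFD@M. All 8 deubiquitinases and shuttle factors fell in SFD@M and 7 of 8 in OTUB1_KD, beside 38.7% and 25.8% of all genes tested. Uchl5, a cap-bound deubiquitinase chosen after its values were seen, fell by 2.22 ± 0.07 in SFD@M and by 1.38 ± 0.34 in OTUB1_KD. Nfe2l1, the transcription factor of subunit genes, went the other way, from 189, 191 and 188 CPM in Blank to 237, 267 and 255 in SFD@M (0.41 ± 0.06, edgeR adjusted p = 0.00025), and differed by 0.30 ± 0.15 in OTUB1_KD (adjusted p = 0.12). There it was called higher by limma on log2(FPKM + 1) (0.45, adjusted p = 0.021), by edgeR over all 12 libraries (0.28) and without OTUB1_KD replicate 1 (0.36). Ngly1, the glycanase that processes it, rose in both, by 1.33 ± 0.09 and 1.20 ± 0.21. Ddi2, listed with them, was called lower in SFD@M, where it averaged 20.6 CPM against 32.8 in Blank. It was not called in OTUB1_KD (21.8 CPM against 27.7 in NC). Nfe2l2, also listed with them, was called higher in SFD@M (268 CPM against 195) and not called in OTUB1_KD (190 against 226). Psmb8 and Psmb9, the immunoproteasome subunits set aside by the rule, rose by 2.48 ± 0.24 and 3.84 ± 0.38 in OTUB1_KD and by 1.11 ± 0.07 and 2.60 ± 0.12 in SFD@M.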

How the data were processed

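RNA libraries of 12 mouse lung tumours were analysed, 3 per group, as labelled. Per the submitters' processing notes, which name Bowtie2, RSEM 1.3.1, DESeq2 1.4.5 and GRCm39 without their roles, reads were processed by the authors; their settings are not recorded in the labels used. The deposited table holds expected counts, TPM and FPKM for 70659 transcripts, and a normalized count signal, the expected count rounded up times 1 factor per library. Whole reads were recovered from that deposited signal for 100% of values (tolerance 0.001), and the count test on them called 9736 genes in OTUB1_KD against NC and 13088 in SFD@M against Blank.

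Expected counts were summed over transcripts by Entrez gene and rounded. Of 19212 identifiers 19155 had a symbol, and unnamed ones held at most 0.342% of counts. Depth was 16062805 to 18028815 counts per library, and counting intervals cover counting error only. Genes passing filterByExpr (edgeR 4.0.16, TMM) were tested with quasi-likelihood fits of the groups compared, with Benjamini-Hochberg adjustment over all genes tested; SE is the absolute log2 fold change over the square root of F. TPM and FPKM were summed per gene and, in alternatives, tested with limma 3.58.1 on a log2 scale with 1 or 0.1 added, which understates changes of low genes. DESeq2 1.42.0 was an alternative tool. The scripts were tested on simulated data. Near copies such as Psme2 and Psme2b may share reads.

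The members, gene lists, comparisons and tests were chosen with earlier results of these data known. Named with values were the catalytic subunits, activators, chaperones and 7 set pathway genes, plus in each comparison the 5 largest rises and falls called and the 3 smallest p of the difference; further members and pathway genes were named after their values were seen. Promoters are RefSeq's, on GRCm38.p6. Replicate numbers were not used as pairs in the main tests, since the labels do not say what they pair. A fit with them as a block is given with the processing alternatives. Protein sequences and Paaf1 were not used here.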

Additional observations from a re-analysis of the deposited data

Results flagged for a closer look

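The change in SFD@M against Blank and the change in OTUB1_KD against NC differed by the test of the difference itself (edgeR quasi-likelihood test, all 12 libraries) for 31 of 47 members, all lower in the second experiment. Values are differences of log2 fold changes. Of the genes that rose in OTUB1_KD, Psmb10 differed by -2.17, Psme2 by -1.16, Psme1 by -0.84, Psmb5 by -1.08 and, outside the rule, Psmb8 by -1.35. Of the other standard subunits, Psmc5 differed by -1.31, Psma5 by -1.17, Psmb7 by -0.92, Psmb6 by -0.89 and Psma4 by -0.81. Among chaperones Psmg1 differed by -0.97, Psmg2 by -0.77 and Pomp by -0.47. The cap subunit Adrm1 differed by -1.02. Blank lay above NC for 43 members, so the difference holds the gap between the control groups as well. Pomp was not called without any 1 of the NC libraries (-0.48, -0.45 and -0.49), the Blank libraries (-0.50, -0.45 and -0.46) or the SFD@M libraries (-0.47, -0.46 and -0.48), and Psma5 was not called without NC replicate 1 (-1.14), NC replicate 2 (-1.17), Blank replicate 2 (-1.16) or SFD@M replicate 2 (-1.16).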

How the results depend on the processing

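Called members kept their direction under all scalings, filters, tools and units tried, except Psmd8 in SFD@M against Blank, which turned to -0.0561 on log2(TPM + 1) and to -0.0566 on log2(TPM + 0.1); the cause was not tested. With 1 library left out, the members called ranged from 8 to 26 in OTUB1_KD against NC, 19 to 36 for the difference and 0 to 10 in SFD@M against OTUB1_KD. In 1 fit over all 12 libraries 19 were called in Blank against NC and 12 in SFD@M against OTUB1_KD, where DESeq2 called 4. Over all genes the counts moved from 8977 to 2699 in Blank against NC with the 12-library fit, from 2 to 2863 in SFD@M against OTUB1_KD with that fit, to 1372 with DESeq2, and to 1875 without OTUB1_KD replicate 2. For the difference they ranged from 2090 to 5523 with 1 library left out, against 3537. In OTUB1_KD against NC they ranged from 7991 to 11141 with 1 library left out, against 9721.

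The labels do not say whether the replicate numbers in the titles pair the libraries. The correlation of deviations between same-numbered libraries was 0.0038 to 0.080 in OTUB1_KD and NC and -0.0048 to 0.011 in SFD@M and Blank. By this measure 4 and 3 of 6 libraries correlated best with their own number. Correlations this weak over so few libraries cannot decide whether the libraries were paired. With the replicate number as a block, 17 members were called in OTUB1_KD against NC, 46 in SFD@M against Blank, 24 for the difference, 44 in Blank against NC and 0 in SFD@M against OTUB1_KD. Over all genes the block fits called 9362, 13010, 2536, 8947 and 7, in the same order. The spread of OTUB1_KD limits its comparisons: the SE of its members ran from 0.12 to 0.41.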
